A study of Rattus norvegicus with 8 samples.

Results

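Laminins, nidogens and perlecan are the non-collagenous core of the basement membrane, and 10 of their genes were followed in rat annulus fibrosus cells (AFCs) under cyclic mechanical stretch (CMS). These genes were taken by name from the deposited table, 10 of its 31699 rows, by a rule that used their names only. The choice of genes was made with earlier results of these data known. They are the laminin alpha chains Lama2, Lama3, Lama4 and Lama5, the beta chains Lamb1 and Lamb2, the gamma chain Lamc1, the nidogens Nid1 and Nid2, and Hspg2, which encodes perlecan. Of these, 9 carry their symbol in the table. Hspg2 was read from the row ENSRNOG00000021437, which is named AABR07073181.1, because its description reads heparan sulfate proteoglycan 2 and RefSeq lists that name as a synonym of Hspg2.

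A laminin is a cross-shaped trimer of an alpha, a beta and a gamma chain, and the trimers polymerize into a sheet on the cell surface. The alpha chain carries the main sites for integrins and dystroglycan, and secretion of a trimer depends on it. Nidogens bind the laminin gamma1 chain and type IV collagen, and perlecan, a heparan sulfate proteoglycan, binds both networks and holds growth factors. Around disc and cartilage cells, laminins, nidogens, perlecan and type IV collagen are found in the pericellular matrix, the thin shell through which load reaches the cell.

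AFCs are the cells of the outer fibrous ring of the intervertebral disc. Here they came from Sprague Dawley rats, with the annulus tissue of several animals pooled for each isolation, and were used at the third generation. In the group labelled Lv-Ctrl (4 samples) the cells received the empty lentiviral vector pLVX-shRNA-Puro, and in the group labelled Lv-Piezo1 (4 samples) the same vector with a short hairpin RNA against Piezo1, a mechanosensitive ion channel. Both groups were stretched, so the comparison concerns the vector and not the stretch, and no unstretched or uninfected cells were analysed here. The transcript of Piezo1 went against its label, at 30.1 ± 2.67 TPM (a length-corrected share of all transcripts in a sample, scaled to a fixed total) in the Lv-Ctrl samples and 39.4 ± 1.75 TPM in the Lv-Piezo1 samples (SD, n = 4 each), which is a log2 fold change of 0.38 (SE, the standard error, 0.06, limma adjusted p = 0.00086). The study reports, in a supplementary figure, that it verified the knockdown, and those measurements were not examined here. Because the transcript went against the label, the groups are called by their labels. Higher or lower refers to the Lv-Piezo1 samples relative to the Lv-Ctrl samples.

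Perlecan and both nidogens were higher in the Lv-Piezo1 samples, perlecan and Nid1 by about the same factor (1.74 for each). The beta chains moved in opposite directions, with Lamb1 lower at 0.632 times its control level and Lamb2 higher at 1.43 times. Lamc1 was higher at 1.33 times its control level. The alpha chains Lama4 and Lama5 differed least among the abundant members, and Lama3 did not differ beyond the spread of the samples.

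TPM holds no depth, and precision can be judged only from how far the 4 samples of each group lie apart. Between 16645 and 17657 rows were above 0 in a sample. limma was run on log2(TPM + 1) for the 13103 genes whose mean reached 1 TPM, and the added 1 makes the changes of low genes look smaller. On this scale the median log2 fold change of all tested genes was 0.14, and median-ratio scaling of the samples brought it to -0.019. In bulk RNA, fewer cells of a type and less RNA per cell cannot be told apart.

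Markers of other cell types also differed between the groups, and their part in the results on the members was not tested. The 13 smooth muscle and pericyte markers summed to 949 to 996 TPM in the Lv-Ctrl samples and 4817 to 4976 TPM in the Lv-Piezo1 samples, with 6 of 11 tested genes called higher (Acta2, Myh11 and Cnn1 among them) and 2 called lower (Kcnj8 and Abcc9). The endothelial list, 9 of 10 genes with a row, summed to 1.83 to 2.46 TPM and 5.64 to 6.68 TPM, most of it Flt1, while Emcn was listed at 0 and Pecam1 and Cdh5 had means of at most 0.15 TPM in either group. Among the 8 Schwann cell markers Sox10 was listed at 0, and the sum of 321 to 332 TPM against 139.95 to 149.6 TPM was almost wholly S100b. The epithelial markers summed to at most 0.58 TPM in any sample. The macrophage list summed to 21.0 to 22.7 TPM and 36.2 to 41.3 TPM, with Adgre1, C1qa and C1qb listed at 0. Most of it was Cd14 (20.9 and 25.8 TPM on average), and Cd68 was called higher (0.955 to 12.3 TPM on average). Ptprc and Csf1r had means of at most 0.095 TPM in either group. The nucleus pulposus and notochord list summed to 2.69 to 3.42 TPM and 7.35 to 8.89 TPM, with Tbxt, Shh and Noto at 0. Car3 of that list was called higher (0.323 to 4.67 TPM on average). The skeletal muscle list summed to 3.45 to 40.5 TPM and 10.1 to 12.6 TPM, with Myod1, Myog and Pax7 at 0. The adipocyte list summed to 7.13 to 9.78 TPM and 15.1 to 17.2 TPM, with Fabp4 called higher and Cfd called lower. The high skeletal muscle sum came from Lv-Ctrl replicate 2 alone, where Acta1 was 22.1 TPM, beside 1.59 to 2.14 TPM in the other controls. The 14 annulus fibrosus and fibroblast markers were the most abundant list, at 7445 to 8367 TPM and 10737 to 11477 TPM, with Comp called higher and Dcn and Pdgfra called lower.

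The members covered a wide range of levels. In the Lv-Ctrl samples the order of mean TPM was Nid2 (219.9), Lamc1 (195), Lamb2 (145), Nid1 (103), Lamb1 (94.0), Hspg2 (93.2), Lama4 (59.5), Lama5 (42.2), Lama3 (4.14) and Lama2 (0.0125). The ranges of Nid2 and Lamc1 overlapped, and so did those of Nid1, Lamb1 and Hspg2, although Nid2 lay above Lamc1 in each of the 4 samples. In the Lv-Piezo1 samples the order changed at a single gene. Lamb1 dropped from rank 5 to rank 7, below Hspg2 and Lama4, with no overlap between the ranges of Lama4 (66.3 to 73.0 TPM) and Lamb1 (58.1 to 61.1 TPM). Nid1 and Hspg2 were the only neighbours in that order whose ranges overlapped. Against all tested genes, the 8 abundant members had a higher mean TPM than 78.3% (Lama5) to 95.9% (Nid2) of genes, and Lama3 than 22.4%.

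**Figure D1:**
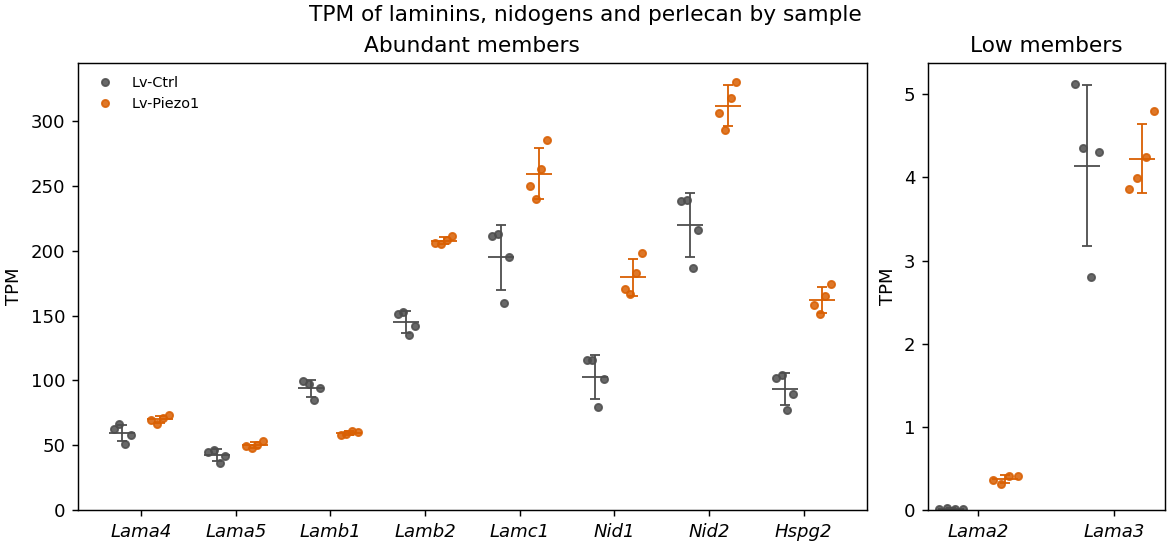
TPM of each member in every sample (points, grey for Lv-Ctrl and orange for Lv-Piezo1, 4 samples each), with the mean and SD as bars; the low members Lama2 and Lama3 have their own axis. Lamb1 is the only member whose 4 Lv-Piezo1 samples all lie below the controls, and Lama3 is the only member whose groups overlap.

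The study's cut-offs, an adjusted p below 0.05 and a log2 fold change of at least 1 in either direction, were applied here to limma. The study itself used DESeq, which was not run here. None of the 9 tested members reached these cut-offs in limma, which 4.91% of all tested genes passed as higher and 2.76% as lower. At an unadjusted p below 0.05, 8 of the 9 members differed, as did 62.3% of all tested genes. By the adjusted p alone, 7 of the 9 tested members were higher and 1 was lower, while 41.9% of all tested genes passed as higher and 16.3% as lower. The groups did not overlap, with the Lv-Piezo1 samples above, in the same 7 members (39.8% of all tested genes) and, with those samples below, in 1 member (14.5% of all tested genes). The median log2 fold change of the 9 members was 0.42, beside 0.14 for all tested genes. After median-ratio scaling, 5 members were higher and 1 lower by the adjusted p from limma, beside 26.7% and 29.2% of all tested genes. Quantile normalization gave the same counts of members, beside 28.8% and 27.2% of all tested genes. Below, "rose" and "fell" are used of members with an adjusted p below 0.05.

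**Figure D2:**
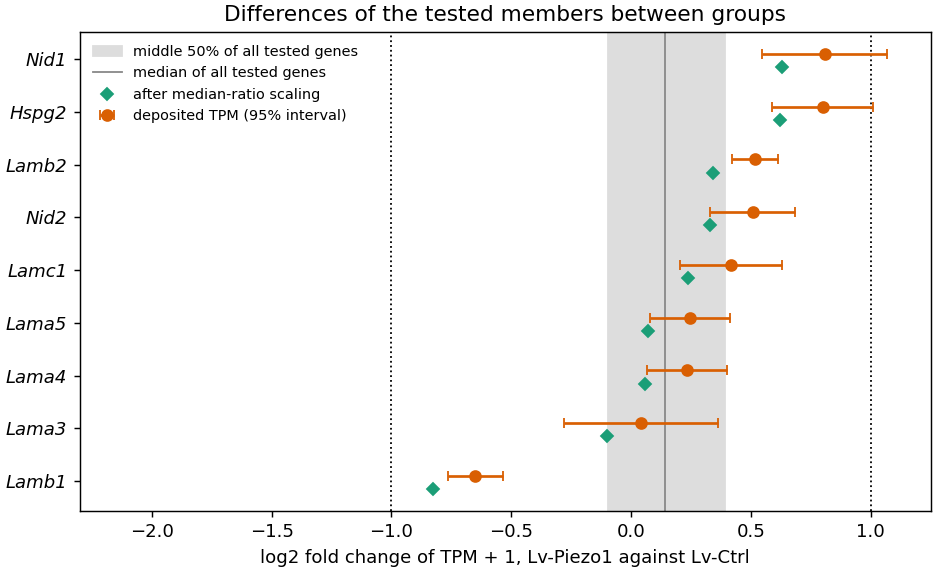
Log2 fold change of TPM + 1 of the 9 tested members (orange, with 95% intervals from limma) and the same after median-ratio scaling (green). The grey band holds the middle 50% of all tested genes (-0.096 to 0.39) and the dotted lines mark the threshold of 1; Nid1 and Hspg2 lie farthest to the right and Lamb1 farthest to the left.

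Among the alpha chains, Lama4 and Lama5 were the abundant ones. Lama4 (ENSRNOG00000000599), the alpha chain of laminins in vessel walls and mesenchymal tissue, measured 62.7, 66.0, 51.0 and 58.2 TPM in Lv-Ctrl replicates 1 to 4 and 69.3, 66.3, 70.8 and 73.0 TPM in the Lv-Piezo1 samples. All Lv-Piezo1 samples were above the controls, but the lowest of them exceeded the highest control by little. Lama4 rose by 0.23 on the log2 scale (SE 0.07, limma adjusted p = 0.023). This call was lost after median-ratio scaling (0.06, adjusted p = 0.38 from limma), after quantile normalization (0.13, adjusted p = 0.13 from limma), and without Lv-Ctrl replicate 4 (adjusted p = 0.056 from limma), Lv-Piezo1 replicate 3 (0.058) or Lv-Piezo1 replicate 4 (0.061).

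Lama5 (ENSRNOG00000053691), the most widespread alpha chain in adult tissues, measured 44.6, 46.4, 36.2 and 41.7 TPM in the Lv-Ctrl samples and 49.3, 48.2, 49.9 and 53.0 TPM in the Lv-Piezo1 samples. The groups did not overlap here either. Lama5 rose by 0.25 on the log2 scale (SE 0.07, limma adjusted p = 0.017), and 61.7% of all tested genes had a lower log2 fold change. Median-ratio scaling left 0.07 (adjusted p = 0.27 from limma) and quantile normalization 0.13 (adjusted p = 0.10 from limma).

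Lama3 (ENSRNOG00000011300), the alpha chain of the epithelial laminin of hemidesmosomes, measured 5.12, 4.35, 2.80 and 4.30 TPM in the Lv-Ctrl samples and 3.86, 3.99, 4.25 and 4.80 TPM in the Lv-Piezo1 samples. The Lv-Piezo1 samples lay inside the range of the controls. Its log2 fold change was 0.04, with a 95% interval of -0.28 to 0.36 (adjusted p = 0.83 from limma), and was -0.10 after median-ratio scaling, so no difference was detectable, and the interval leaves room for a modest one in either direction.

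Lama2 (ENSRNOG00000011134), the alpha chain of muscle and Schwann cell laminin, stood at the bottom of the table. It is listed at 0.01, 0.02, 0.01 and 0.01 TPM in the Lv-Ctrl samples and at 0.36, 0.31, 0.41 and 0.41 TPM in the Lv-Piezo1 samples. Every Lv-Piezo1 sample was higher (p = 0.029 by exact permutation of the group labels, two-sided, a floor for groups of this size). Its mean lay below the limit of 1 TPM for the fit across genes, and the control values are a single step or a pair of steps of the table's rounding, so no fold change is given. With no limit on low TPM, its difference on log2(TPM + 1) was 0.44 (SE 0.03, limma adjusted p = 1.7e-05). Lama1, the remaining alpha chain, had at most 0.06 TPM in any sample.

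The beta chains showed the clearest contrast within the family. Lamb1 (ENSRNOG00000005678), the beta chain that predominates in the embryo, measured 99.2, 97.5, 84.7 and 94.5 TPM in the Lv-Ctrl samples and 58.1, 58.6, 61.1 and 59.9 TPM in the Lv-Piezo1 samples. No Lv-Piezo1 sample came near the lowest control. Lamb1 fell by 0.65 on the log2 scale (SE 0.05, limma adjusted p = 6.2e-06), and only 5.74% of all tested genes had a lower log2 fold change. Under the 15 alternative settings tried, its log2 fold change ran from -0.83 to -0.62, each with an adjusted p of at most 0.00034 from limma.

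Lamb2 (ENSRNOG00000047768), the beta chain first known from the neuromuscular junction and the kidney filter, measured 151, 153, 135 and 142 TPM in the Lv-Ctrl samples and 206, 205, 209 and 212 TPM in the Lv-Piezo1 samples. It had the smallest relative spread of the members, with a coefficient of variation of 5.71% in the Lv-Ctrl samples and 1.41% in the Lv-Piezo1 samples. Lamb2 rose by 0.52 on the log2 scale (SE 0.04, limma adjusted p = 7.8e-06). After median-ratio scaling the rise was 0.34 (adjusted p = 1e-05 from limma). The third beta chain, Lamb3 of the epithelial laminin, had 0.513 ± 0.183 TPM in the Lv-Ctrl samples and 0.335 ± 0.0676 TPM in the Lv-Piezo1 samples (SD, n = 4 each), with overlapping groups (exact two-sided permutation test, p = 0.17).

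Lamc1 (ENSRNOG00000002680), the gamma chain shared by most laminins, measured 212, 213, 159.5 and 195 TPM in the Lv-Ctrl samples and 250.0, 240.1, 263 and 285 TPM in the Lv-Piezo1 samples. The groups were apart, although Lv-Ctrl replicate 3 widened the control range. Lamc1 rose by 0.42 on the log2 scale (SE 0.09, limma adjusted p = 0.0042), and by 0.24 after median-ratio scaling (adjusted p = 0.018 from limma). Lamc3, another gamma chain, had at most 0.05 TPM in any sample.

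Both nidogens rose, Nid1 more than Nid2. Nid1 (ENSRNOG00000002461), the major nidogen and the link between laminin and type IV collagen, measured 115, 116, 79.7 and 101 TPM in the Lv-Ctrl samples and 171, 167, 183 and 198 TPM in the Lv-Piezo1 samples. It had the largest log2 fold change of the tested members, 0.81 (SE 0.12, limma adjusted p = 0.00029), higher than that of 91.6% of all tested genes. Leaving out each sample in turn gave 0.69 to 0.87, with the lowest value without Lv-Ctrl replicate 3.

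Nid2 (ENSRNOG00000000341) measured 238, 239, 187 and 216 TPM in the Lv-Ctrl samples and 307, 293, 318 and 330.2 TPM in the Lv-Piezo1 samples. It was the most abundant member in every sample. Nid2 rose by 0.51 on the log2 scale (SE 0.08, limma adjusted p = 0.00046), and by 0.33 after median-ratio scaling (adjusted p = 0.001 from limma).

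Hspg2, which encodes the core protein of perlecan, measured 102, 104, 76.9 and 89.8 TPM in the Lv-Ctrl samples and 159, 151, 165 and 174 TPM in the Lv-Piezo1 samples. The groups were far apart relative to their spread. Hspg2 rose by 0.80 on the log2 scale (SE 0.09, limma adjusted p = 7.9e-05), more than 91.4% of all tested genes, and by 0.62 after median-ratio scaling (adjusted p = 8.3e-05 from limma). Agrn, chosen after its values were seen, encodes another large heparan sulfate proteoglycan of basement membranes. Its level was far lower, at 5.33 ± 0.662 and 6.64 ± 0.166 TPM (SD, n = 4 each), with a log2 fold change of 0.28 (SE 0.08, limma adjusted p = 0.018).

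The promoters of the genes with the largest fall (Lamb1) and the largest rises (Nid1 and Hspg2) are shown, chosen by their log2 fold changes. Each is a 300-base RefSeq window around the annotated start in assembly GRCr8, 5′ to 3′ on the gene's strand, with every GC box (GGGCGG on either strand) in capitals. The windows lie at chr6:53562846-53563145, chr17:93069036-93069335 and chr5:154960596-154960895, all on the plus strand.
Lamb1: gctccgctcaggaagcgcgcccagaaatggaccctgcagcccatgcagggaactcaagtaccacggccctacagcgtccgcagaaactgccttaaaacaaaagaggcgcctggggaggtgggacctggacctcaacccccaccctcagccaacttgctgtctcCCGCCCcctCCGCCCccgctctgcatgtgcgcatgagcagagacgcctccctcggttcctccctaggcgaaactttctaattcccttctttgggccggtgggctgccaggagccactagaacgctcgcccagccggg
Nid1: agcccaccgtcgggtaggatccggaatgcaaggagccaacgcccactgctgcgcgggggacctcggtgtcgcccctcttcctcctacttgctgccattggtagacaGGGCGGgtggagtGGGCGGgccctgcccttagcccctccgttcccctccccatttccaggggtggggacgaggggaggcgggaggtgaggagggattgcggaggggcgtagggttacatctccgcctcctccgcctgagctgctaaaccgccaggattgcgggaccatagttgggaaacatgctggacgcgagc
Hspg2: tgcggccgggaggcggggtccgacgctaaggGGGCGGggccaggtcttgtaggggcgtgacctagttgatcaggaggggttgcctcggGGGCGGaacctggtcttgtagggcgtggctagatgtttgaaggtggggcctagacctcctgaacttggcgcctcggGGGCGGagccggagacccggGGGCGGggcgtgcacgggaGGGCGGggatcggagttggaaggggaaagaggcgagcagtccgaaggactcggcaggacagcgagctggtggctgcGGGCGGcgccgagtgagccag

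The GC box stood 2 times in the Lamb1 window, 2 times in that of Nid1 and 6 times in that of Hspg2. A relation between motifs and the changes in TPM was not tested. Of the 10 members, 8 had a promoter entry, and 6 of these held a GC box, which 33.1% of all 33469 windows held. Lamc1 had 5, a pair of them overlapping, Lama5 had 4 and Lama2 had 1. On either strand, CCAAT occurred in 2 members (Lama2 and Nid1; 37.5% of all windows), TATAAA in Lama4 (14.2%), TGANTCA, the AP-1 site, 3 times in Lama3 (7.33%), and a CArG box in Lama2 (1.64%). CACGTG (6.42% of all windows) and GTCTAGAC (0.197%) were in none of the 8 windows, and no sites of different motifs overlapped.

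Ratios of genes within a sample do not depend on how the sample was scaled, and 8 of them were compared with exact two-sided permutation tests, adjusted over the 8. In 7 of them the groups did not overlap, each with an adjusted p of 0.033 (exact permutation p = 0.029, the smallest possible). As single genes, 39.8% of all tested genes did not overlap as higher and 14.5% as lower. No such share was worked out for ratios of other gene pairs, so the count of 7 has no background. Several of the 8 ratios share Lamc1 and are not independent of each other. Lamb1 to Lamb2 was 0.658, 0.639, 0.628 and 0.667 in the Lv-Ctrl samples and 0.281, 0.286, 0.293 and 0.283 in the Lv-Piezo1 samples, a difference of -1.18 in the log2 ratio. The laminin transcripts thus held less Lamb1 for each Lamb2 in every Lv-Piezo1 sample.

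Nid1 to Nid2 went from 0.466 ± 0.0271 to 0.575 ± 0.0187 (SD, n = 4 each), so Nid1 rose beyond Nid2, while Nid2 stayed the more abundant. Set against Lamc1, the chain that nidogens bind, the summed nidogens went from 1.66 ± 0.023 to 1.89 ± 0.0284 and Hspg2 from 0.478 ± 0.013 to 0.625 ± 0.0104. The summed nidogens and perlecan therefore rose more than the gamma chain. Nid2 alone was not tested against Lamc1, and their log2 fold changes were close (0.51 for Nid2 and 0.42 for Lamc1). The chain sums went the other way, with the summed alpha chains to Lamc1 at 0.544 ± 0.0154 and 0.481 ± 0.0159 and the summed beta chains to Lamc1 at 1.24 ± 0.0968 and 1.03 ± 0.062. In TPM, the alpha chains summed to 106 ± 11.8 and 125 ± 5.22 and the beta chains to 239.5 ± 14.4 and 268 ± 3.88 (SD, n = 4 each), so alpha transcripts were fewer than beta transcripts in both groups.

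Lama5 to Lama4 was the ratio whose groups overlapped, at 0.711 ± 0.00551 and 0.717 ± 0.0105 (adjusted p = 0.29, exact permutation test over n = 4 each). Leaving out each sample in turn kept its log2 difference between 0.0075 and 0.022. Lama2 to Lama4 differed by 4.72 in the log2 ratio, and by 1.83 after 0.1 TPM was added to each gene. The added amount exceeds the control mean of Lama2 (0.0125 TPM), so the second value depends on that amount. The first rests on control values near the rounding step, so the size of the difference is uncertain.

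**Figure D3:**
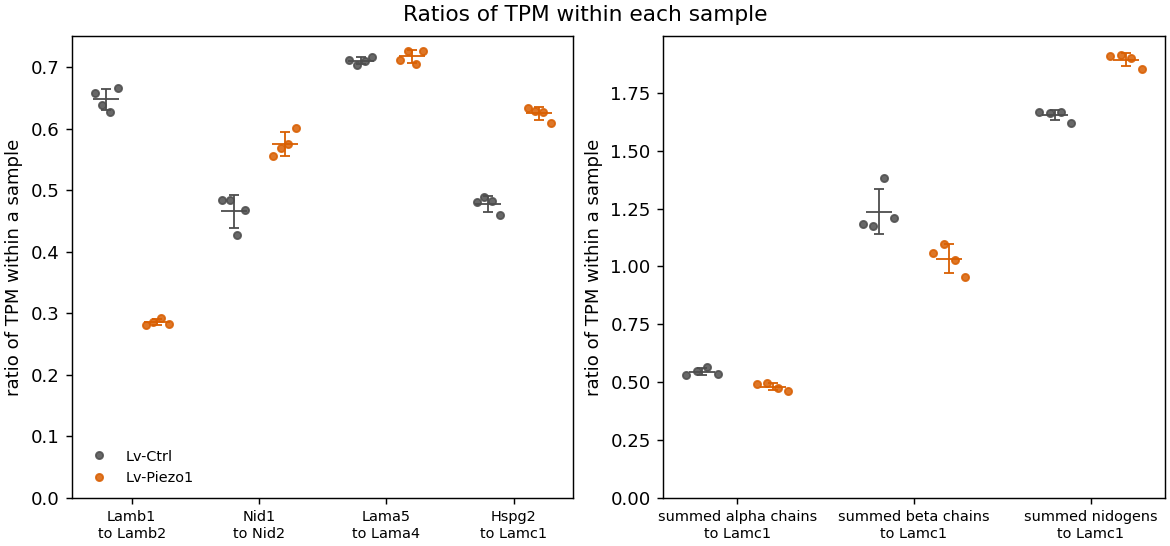
Ratios of TPM within each sample (points, grey for Lv-Ctrl and orange for Lv-Piezo1, with mean and SD, 4 samples each); Lama2 to Lama4 is not drawn. Lamb1 to Lamb2 falls from 0.647 to 0.286 on average, while the ratio of Lama5 to Lama4 overlaps between the groups.

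Within the class of beta chains, Lamb1 held 39.2% ± 0.663 of the summed TPM in the Lv-Ctrl samples and 22.2% ± 0.305 in the Lv-Piezo1 samples, and Lamb2 60.6% ± 0.634 and 77.7% ± 0.296 (SD, n = 4 each). Neither group overlapped the other for these chains. Because the 8 chain shares were adjusted as a family in which 3 reached the smallest possible p, these differences had an adjusted p of 0.076 (exact permutation p = 0.029) and did not pass. Within the alpha chains Lama4 held 56.2% ± 0.46 and 56.1% ± 0.415, and Lama5 39.9% ± 0.246 and 40.2% ± 0.321 (SD, n = 4 each). The share of Lama4 differed by -0.11 percentage points (adjusted p = 0.60, exact permutation test) and that of Lama5 by 0.30 (adjusted p = 0.27, exact permutation test), both within the spread of the samples. Lama3 held 3.88% ± 0.614 and 3.39% ± 0.211 (SD, n = 4 each), and Lama2 0.0117% ± 0.00374 and 0.298% ± 0.0285.

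**Figure D4:**
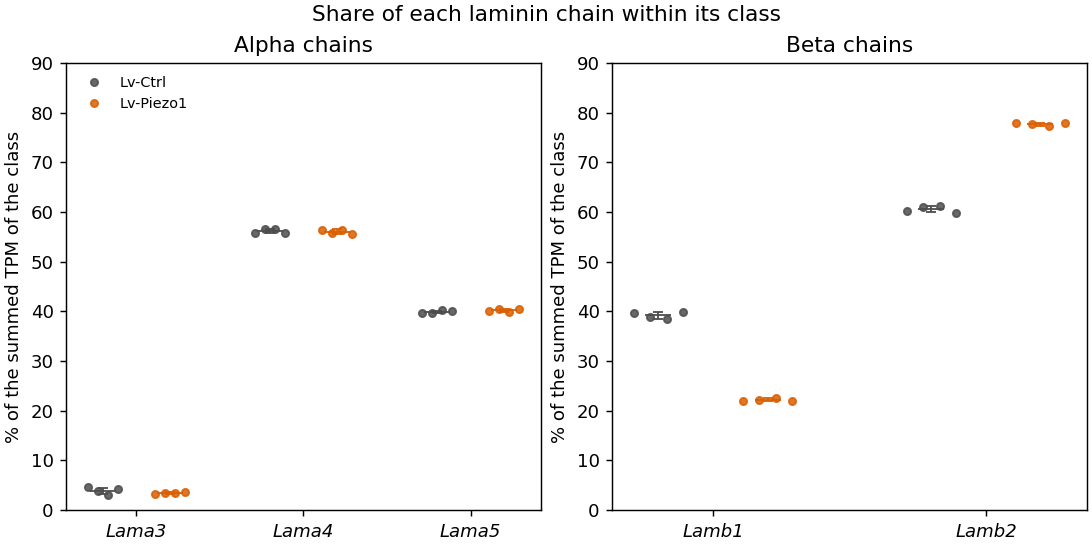
Percent of the summed TPM of the alpha chains (left) and beta chains (right) held by each chain in every sample, with mean and SD (grey for Lv-Ctrl, orange for Lv-Piezo1, 4 samples each). The shares of Lama4 and Lama5 overlap between the groups, and the beta shares of Lamb1 and Lamb2 move apart from 39.2% and 60.6% to 22.2% and 77.7%.

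Replicates varied together across the members. Lv-Ctrl replicate 3 was the lowest control for 9 of 9 tested members, as it was for 48.8% of all tested genes, and Lv-Piezo1 replicate 4 was the highest of its group for 8 of 9, as for 42.7% of all tested genes. The coefficient of variation of the 8 abundant members was 5.71% (Lamb2) to 16.5% (Nid1) in the Lv-Ctrl samples and 1.41% (Lamb2) to 7.95% (Nid1) in the Lv-Piezo1 samples. Lv-Ctrl replicate 2, the library with the high skeletal muscle sum, was the highest control for 7 of 9 members (31.6% of all tested genes), and Lv-Piezo1 replicate 2 was the lowest of its group for 7 of 9 (35.5%). Without Lv-Ctrl replicate 3, and likewise without Lv-Ctrl replicate 2, 7 members were higher and 1 lower by the adjusted p from limma, the same counts as with all samples.

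Other basement membrane components were described by a list, and its difference from the members was not tested. Of 26 listed genes 18 were tested, with a median log2 fold change of 0.88 beside 0.14 for all tested genes. Among the 18, 9 were called higher and 1 lower, beside 4.91% and 2.76% of all tested genes. The list was chosen with earlier results of these data known, so these counts are a description and not an independent test. Those with the largest changes were Col4a3, a chain of specialised type IV collagen (0.335 ± 0.058 to 34.5 ± 2.11 TPM), Fbln2, which encodes fibulin-2, a ligand of nidogens and laminins (3.33 ± 0.424 to 54.2 ± 1.09 TPM), Thbs4, which encodes thrombospondin-4, a matrix protein of tendon and muscle (56.4 ± 2.95 to 529 ± 15.9 TPM) and Col4a4 (0.302 ± 0.246 to 8.97 ± 0.43 TPM; SD, n = 4 each), each with an adjusted p of at most 1.6e-07 from limma. The lower gene, Fbln1, named after its values were seen, encodes fibulin-1 and went from 335.5 ± 15.2 to 84.6 ± 2.5 TPM (SD, n = 4 each), which is a log2 fold change of -1.98 (SE 0.04, limma adjusted p = 1.5e-09). Also named after their values were seen, the main collagen IV chains Col4a1 and Col4a2, partners of the nidogens in the sheet, rose by 0.73 and 0.34 on the log2 scale (adjusted p = 9.1e-06 and 0.0039 from limma), below the threshold of 1.

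The genes that receive laminin at the cell surface were described by lists, and their difference from all tested genes was not tested. Of 7 laminin-binding integrin subunits 5 were tested, and Itga7, the alpha7 subunit of the muscle laminin receptor, was the called gene, lower at 47.1 ± 3.62 TPM against 109 ± 11.6 TPM (SD, n = 4 each; log2 fold change -1.19, SE 0.08, limma adjusted p = 3e-06). Of all tested genes, 4.91% were called higher and 2.76% lower. By the adjusted p alone 2 integrin subunits were higher (Itgb1 and Itga1), 1 was lower (Itga7) and 2 did not pass (Itga3 and Itga6). The shares of all tested genes were 41.9% higher and 16.3% lower. Of 14 genes of dystroglycan, the Lutheran receptor and the dystrophin complex 12 were tested and 0 called. By the adjusted p alone 5 were higher and 3 lower, beside 41.9% and 16.3% of all tested genes, and 8 had an unadjusted p below 0.05 in limma (62.3% of all tested genes). Of 17 enzymes that glycosylate dystroglycan, the modification through which it binds laminin, 15 were tested and 0 called, with 7 higher and 2 lower by the adjusted p alone and 10 at an unadjusted p below 0.05 in limma, to be read against the same shares of all tested genes. The median log2 fold change was -0.07 for the integrins, 0.18 for the dystroglycan list and 0.10 for the enzymes, beside 0.14 for all tested genes.

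The netrins, secreted guidance proteins whose amino-terminal domain resembles that of laminin chains, had 4 of 6 genes tested, with Ntng1 called lower (5.84 ± 0.618 to 1.46 ± 0.339 TPM, SD, n = 4 each; log2 fold change -1.48, SE 0.12, limma adjusted p = 7.9e-06). By the adjusted p alone 2 netrins were higher, 1 was lower and 1 did not pass, beside 41.9% of all tested genes higher and 16.3% lower. Their median log2 fold change was 0.07.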

How the data were processed

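RNA-seq of 8 samples of stretched AFCs was analysed, 4 per group. The authors trimmed and filtered the reads, aligned them to the rat genome (HISAT2) and assembled transcripts (StringTie). The deposited values are TPM rounded to 2 decimals, with the authors' mean of each group, which was not used. The submitters' processing notes name the mouse build mm10, whereas the rows carry rat Ensembl identifiers, and the build and annotation behind the table are not given in the sources used here. TPM keeps no depth.

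log2(TPM + 1) was compared with limma 3.58.1 in R 4.3.3 (trend, Benjamini-Hochberg adjustment) over all 13103 genes whose mean TPM reached 1. Calls required a log2 fold change of 1 or more in either direction with adjusted p under 0.05, as in the study's methods. The fit was tested on simulated data. Ratios, chain shares and single genes were compared with exact two-sided permutation tests over 70 relabelings. The study calls the 4 samples of a group biological repeats, and counts differently treated cells of the same isolation as a single repeat. That describes groups paired by isolation, but the labels do not say which cultures the samples came from. The main tests are therefore unpaired, and p-values measure only the spread between the samples.

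The genes and lists were chosen with earlier results of these data known. Named genes are the 10 members, other laminin chains, Piezo1 and, in each pathway list, up to 4 called genes with the largest change. Marker genes are named from their lists. Genes named outside these rules were chosen after their values were seen (Agrn, Col4a1, Col4a2, Fbln1, Itgb1, Itga1, Itga3, Itga6 and those in the closing section). Alternatives were a pseudocount of 0.1, other limits on low TPM, median-ratio scaling, quantile normalization, no trend, a replicate block and leaving out each sample. Symbols were matched to RefSeq GRCr8. Promoters come from RefSeq. A gene that meets the naming rule is not reported here.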

Additional observations from a re-analysis of the deposited data

Results flagged for a closer look

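Of 60 groups of 4 values examined for a sample far from the other 3 of its group (laminin, nidogen and perlecan genes, the 8 ratios and the 8 chain shares, each in both groups), 3 stood out, and chance alone flags about 1 in 20. Lama2 was 0.02 TPM in Lv-Ctrl replicate 2 and 0.01 TPM in the other controls. Lamc3 was 0.04 TPM in Lv-Ctrl replicate 1 and listed at 0 in the other controls. The ratio of the summed nidogens to Lamc1 was 1.62 in Lv-Ctrl replicate 4, beside 1.66 to 1.67 in the other controls, still below the lowest ratio labelled Lv-Piezo1 (1.85).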

How the results depend on the processing

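Of the 9 tested members, 8 kept their direction under every alternative that could be run on them, and Lama3 did not. Lama4 and Lama5 lost their call under some (values above), and the other 7 stayed on their side of the threshold. The counts of members called stayed at 0, and those with an adjusted p below 0.05 in limma ran from 5 to 7 higher, with 1 lower throughout. With no limit on low TPM the count was 8 higher, because Lama2, outside the 9 tested members, entered the fit. With the replicate number as a block (a replicate block), 7 members were higher and 1 lower, as without it, and no member's call changed. The correlation of same-numbered samples' deviations from their group means was -0.058 to -0.012, so the numbers share no visible pairing. For the ratios, the sign-flip test within replicate numbers cannot go below p = 0.125 (exact test), and no count of ratios past the threshold is given for it or for leaving out a sample. With a mean TPM of at least 5 required, 372 genes were called higher against 644. After median-ratio scaling, 3499 genes were higher and 3822 lower by adjusted p, against 5489 and 2137, and after quantile normalization 3564 were lower. Among called genes 64.1% were higher as deposited, 51.4% with median-ratio scaling and 49.4% with quantile normalization. The cause of these shifts was not tested.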

Other observations

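Further basement membrane components called higher, named here after their values were seen, were Smoc2 (28.2 ± 1.65 to 96.8 ± 2.52 TPM) and Smoc1 (0.115 ± 0.0444 to 4.71 ± 0.427 TPM), which encode calcium-binding relatives of Sparc, and Egfl6 (2.04 ± 0.237 to 12.3 ± 0.755 TPM), Npnt (0.767 ± 0.144 to 2.62 ± 0.341 TPM) and Tinagl1 (10.4 ± 0.386 to 22.9 ± 1.13 TPM; SD, n = 4 each). Egfl6 and Npnt encode ligands of the integrin alpha8 beta1. Their log2 fold changes ran from 1.03 (Npnt) to 2.35 (Smoc1), each with an adjusted p of at most 6.6e-05 from limma. Sparc itself, also named after its values were seen and among the most abundant transcripts of the list at 10860 ± 508 TPM in the samples labelled Lv-Ctrl, went to 9272 ± 253 TPM (SD, n = 4 each) with a log2 difference of -0.23 (adjusted p = 0.0011 from limma), and Col18a1, chosen likewise, which encodes type XVIII collagen, from 188 ± 11.1 to 146 ± 5.74 TPM (log2 fold change -0.36, adjusted p = 0.0002 from limma).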
